A study of Mus musculus with 12 samples.

Results

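The constitutive proteasome subunits are the proteins of the standard proteasome, and 35 of their genes were among the 18193 genes measured here in cultured mouse peritoneal macrophages (PMs). Members were all genes whose single symbol is Psma, Psmb, Psmc or Psmd followed by digits, without the immune forms *Psmb8*, *Psmb9* and *Psmb10* and the thymic *Psmb11*. Each gene was read from 1 probe set, the one with the highest mean log2 signal over all arrays, and no expected symbol was missing. RNA was hybridized to 12 Affymetrix mouse arrays, 2 for each of 6 groups. PMs had been given the transfection reagent (labelled Lipofectamin), a scrambled control oligonucleotide (Scrambled) or antagomir-21 (Antagomir21 or Antagomir), an oligonucleotide that binds and blocks miR-21. Each of these 3 transfections was combined with 1 of 2 kinds of exosomes, small vesicles shed here by sensory neurons carrying a GFP reporter (GFP_reporter) or extra miR-21 (Neuronal_mir_21). The 6 groups were therefore Lipofectamin, Scrambled and antagomir-21 with GFP exosomes, and the same 3 with miR-21 exosomes. Every group received exosomes, so no array shows PMs without them. The labels read as reagent alone for Lipofectamin, and they do not say whether replicates came from separate cultures. The methods describe biological triplicates, of which 2 per group are analyzed here, so the p-values measure the spread between these samples, which may be technical.

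The proteasome is the protease that degrades ubiquitin-tagged proteins in the cytosol and nucleus. Its core particle is a barrel of stacked rings, in which alpha subunits form the gate and beta subunits hold the cutting sites. A regulatory cap sits on the barrel: its base unfolds substrates with a ring of ATPases, and its lid removes the ubiquitin chain. In macrophages, proteasomes supply peptides for presentation and degrade the inhibitor that restrains NF-κB, and interferon replaces the catalytic beta subunits by the immune forms. Transcription of subunit genes is raised together by the transcription factor NFE2L1, which binds antioxidant response elements.

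The agent common to antagomir and exosomes was miR-21. Its mature RNA (RefSeq, GRCm38.p6, chr11:86584120-86584141, minus strand) is shown because antagomir-21 is directed against it, with the seed, bases 2 to 8, in capitals.
mmu-miR-21a-5p: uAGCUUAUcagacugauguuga
No probe set carried the symbol of the miR-21 gene, so its level on these arrays was not analyzed here.

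Promoter windows of RefSeq, from 250 bases before to 50 bases after the gene start, were matched to 28 of the 35 members. The core letters of the antioxidant response element, TGACNNNGC on either strand, lay in the windows of 5 members (17.9%), against 14.0% of all 27025 genes with a window. These 5 were *Psmb5*, *Psmb6*, *Psmc6*, *Psmd12* and *Psmd9*. The CCAAT box, CCAAT on either strand, lay in 11 members (39.3%) against 41.1% of all genes, and 5 of these 11 were alpha subunits. No member held both, against 5.03% of all genes. The shares of both motifs among members were thus near those of all genes. The 150 bases before the start are shown for the catalytic subunits *Psmb5* (chr14:54617996-54618145, minus strand) and *Psmb6* (chr11:70525207-70525356, plus strand), with TGACNNNGC in capitals. They are also shown for the alpha subunit *Psma1* (chr7:114276117-114276266, minus strand), one of the members most like the others over the arrays, with CCAAT and its reverse complement in capitals. All coordinates are of GRCm38.p6, and a match to such letters does not say that a factor binds there.
Psmb5: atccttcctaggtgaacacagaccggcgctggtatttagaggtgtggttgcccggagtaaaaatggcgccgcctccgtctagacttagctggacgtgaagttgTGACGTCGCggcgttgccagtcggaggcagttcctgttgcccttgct
Psmb6: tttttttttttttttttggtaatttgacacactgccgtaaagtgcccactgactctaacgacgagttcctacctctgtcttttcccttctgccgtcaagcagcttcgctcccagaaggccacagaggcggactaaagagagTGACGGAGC
Psma1: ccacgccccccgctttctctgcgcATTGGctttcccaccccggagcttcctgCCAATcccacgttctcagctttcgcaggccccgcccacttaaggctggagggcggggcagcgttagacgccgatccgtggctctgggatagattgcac

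Most constitutive subunits gave signals far above the median gene in PMs. Mean log2 signals over the 12 arrays ran from 6.82 to 12.91 with a median of 10.52 over the 35 members, whereas the median gene had 7.91. In all, 32 members lay above the median gene and 26 were in the brightest 25% of genes (4548 genes). Probe sets differ in affinity, so the levels of different subunits were not ordered against each other. For single subunits, SDs over the 12 arrays ran from 0.24 for *Psmb3* to 1.74 for *Psmd3*. PM identity was checked with 10 macrophage markers, all above the median gene, whose mean was 11.08 to 12.52 per array. Of the other cell types a lavage could hold, B cell markers had the highest array means (8.31 to 10.13, 3 of the 4 measured above the median gene).

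In the alpha ring, *Psma1* to *Psma7*, the subunits found in all tissues, had mean log2 signals of 10.32 to 12.84. *Psma8*, which replaces *Psma7* in the testis, had 6.82 and was the only alpha subunit outside the brightest 25%. In the beta ring, the catalytic subunits *Psmb5* (chymotrypsin-like activity), *Psmb6* (caspase-like) and *Psmb7* (trypsin-like) had 9.71 ± 1.31, 10.79 ± 0.79 and 10.53 ± 0.81 (mean ± SD, n = 12 arrays). The noncatalytic *Psmb1*, *Psmb3* and *Psmb4* had 9.43, 11.66 and 12.59, and *Psmb2* had 7.88, below the median gene. All 6 ATPases of the base were above the median gene, *Psmc5* at 8.74 and the other 5 between 10.41 (*Psmc1*) and 12.38 (*Psmc4*).

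In the base, the scaffold subunits *Psmd1* and *Psmd2* and the ubiquitin receptor *Psmd4* had mean log2 signals of 10.26, 10.72 and 9.32. In the lid, the deubiquitinase *Psmd14* had 12.70 and its inactive partner *Psmd7* had 7.79. The other lid subunits, *Psmd3*, *Psmd6*, *Psmd8*, *Psmd11*, *Psmd12* and *Psmd13*, had 8.02, 12.91, 10.32, 10.93, 10.72 and 8.45. The chaperones *Psmd5*, *Psmd9* and *Psmd10*, which help to assemble the base and are not part of the finished cap, had 8.96, 9.13 and 9.04, with none in the brightest 25%. Thus the members outside the brightest 25% were the 3 chaperones, 3 lid subunits, *Psma8*, *Psmb2* and *Psmc5*.

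The immune forms stood on the same arrays at 8.94 ± 0.81 for *Psmb8*, 9.14 ± 0.36 for *Psmb9* and 10.09 ± 1.17 for *Psmb10* (mean ± SD, n = 12 arrays). None of the 3 passed an unadjusted p of 0.05 by limma in any comparison. *Psmb10* was read at 6.64 on replicate 2 of scramble with miR-21 exosomes and between 9.45 and 11.07 on the other 11 arrays.

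**Figure D1:**
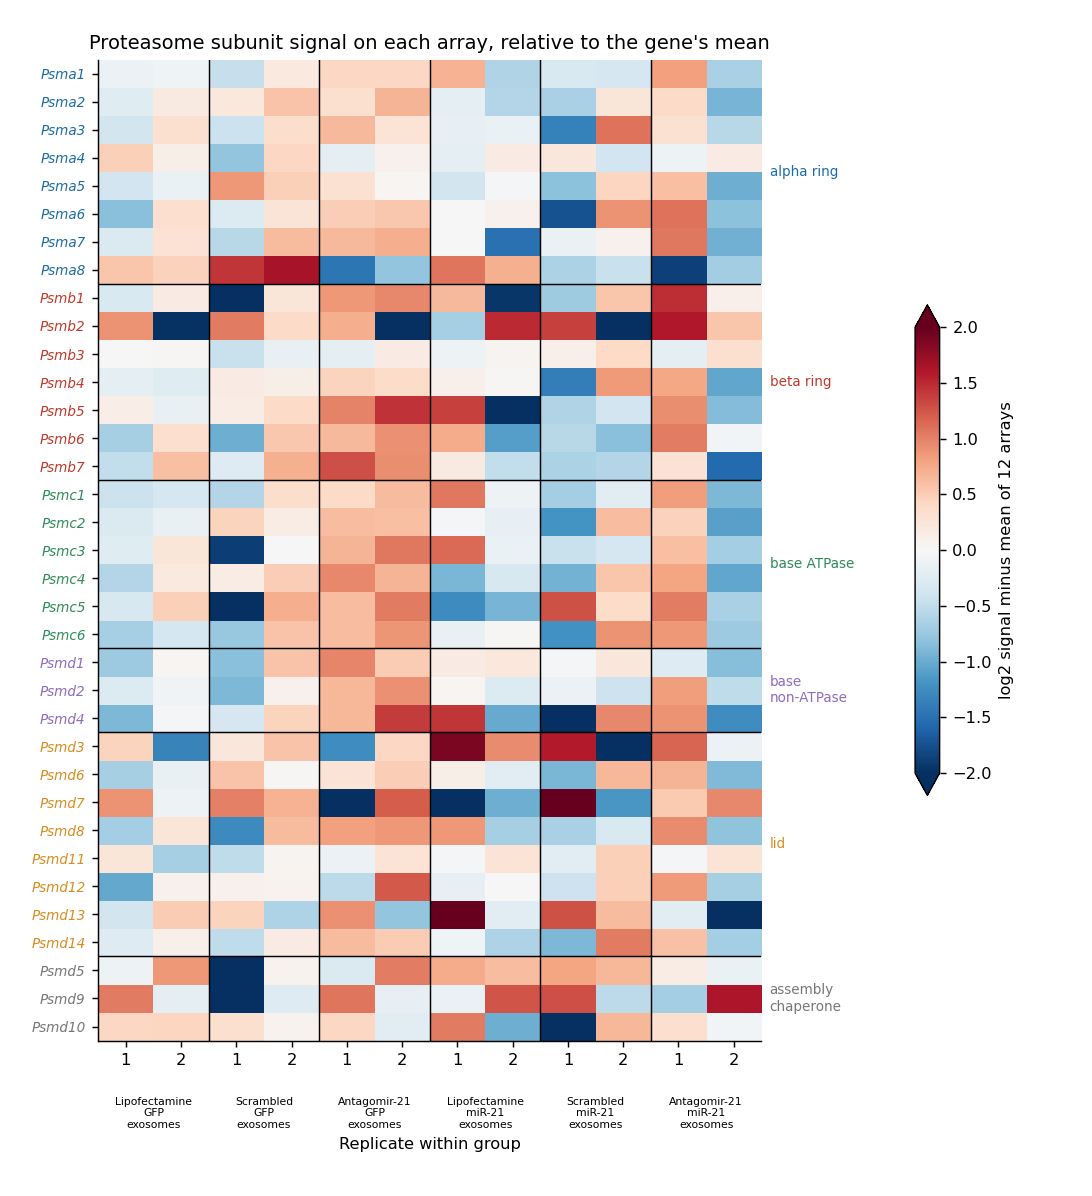
Log2 signal of the 35 members (rows, grouped and coloured by role) on the 12 arrays (columns, 2 replicates per group), minus the gene's mean over the arrays. Values beyond 2 in either direction are drawn at the end of the scale. Most rows share columns of red (both antagomir-21 arrays with GFP exosomes and replicate 1 of those with miR-21 exosomes) and blue (its replicate 2). *Psma8* is below its mean on all of these antagomir-21 arrays.

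The subunits moved together from array to array, including between replicates of 1 group. The members' median deviation from their own means was 0.61 on both arrays of antagomir-21 with GFP exosomes, where 27 and 30 of 35 were above their means. It was 0.68 on replicate 1 of antagomir-21 with miR-21 exosomes (28 of 35 above) and −0.68 on replicate 2 (7 of 35 above). The largest shift of the whole set was thus between replicates that received the same treatment. In scramble-transfected PMs the median deviation was −0.43 and 0.36 with GFP exosomes, and −0.60 and 0.36 with miR-21 exosomes. In the Lipofectamin groups it was −0.28 and 0.09 with GFP exosomes, and 0.03 and −0.16 with miR-21 exosomes.

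Within antagomir-21 with miR-21 exosomes, 29 of 35 members were lower on replicate 2 than on replicate 1, by a median of −1.38 on the log2 scale. Over the brightest 25% of genes the same difference was −0.85 and over all genes −0.13. The replicates of scramble with GFP exosomes differed by a median of 0.66 over the members (26 of 35 higher on replicate 2), and those of the other 4 groups by −0.30 to 0.37. The mean absolute difference between 2 arrays, over the members, was 1.03 for the 6 pairs within a group and 0.97 for the 60 pairs between groups. Arrays of the same group were therefore no closer to each other in subunit signal than arrays of different groups.

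The shift of the subunits went with that of bright genes at large and with the width of the array's signal distribution. The 6 arrays on which the members stood highest were the 6 arrays with the largest SD over all probe sets, 2.29 to 2.48 against 2.04 to 2.27 on the other 6. The brightest 25% of genes deviated by 0.35 on both antagomir-21 arrays with GFP exosomes, and by 0.40 and −0.44 on the replicates of antagomir-21 with miR-21 exosomes. After quantile normalization, which gives all arrays the same distribution, the members' median deviations on these 4 arrays were 0.35, 0.37, 0.46 and −0.63. The macrophage markers (10 of 10 measured, with means of 8.47 to 16.94) had a mean log2 signal of 11.96 and 12.52 on the antagomir-21 arrays with GFP exosomes, and 12.32 and 11.32 on replicates 1 and 2 of those with miR-21 exosomes. It was lowest, 11.08, on replicate 1 of scramble with GFP exosomes, where the members' median was −0.43. What part the array's signal distribution or the level of these markers has in the shared movement was not tested. In RNA from a whole culture, fewer cells of a type and less RNA per cell cannot be told apart.

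**Figure D2:**
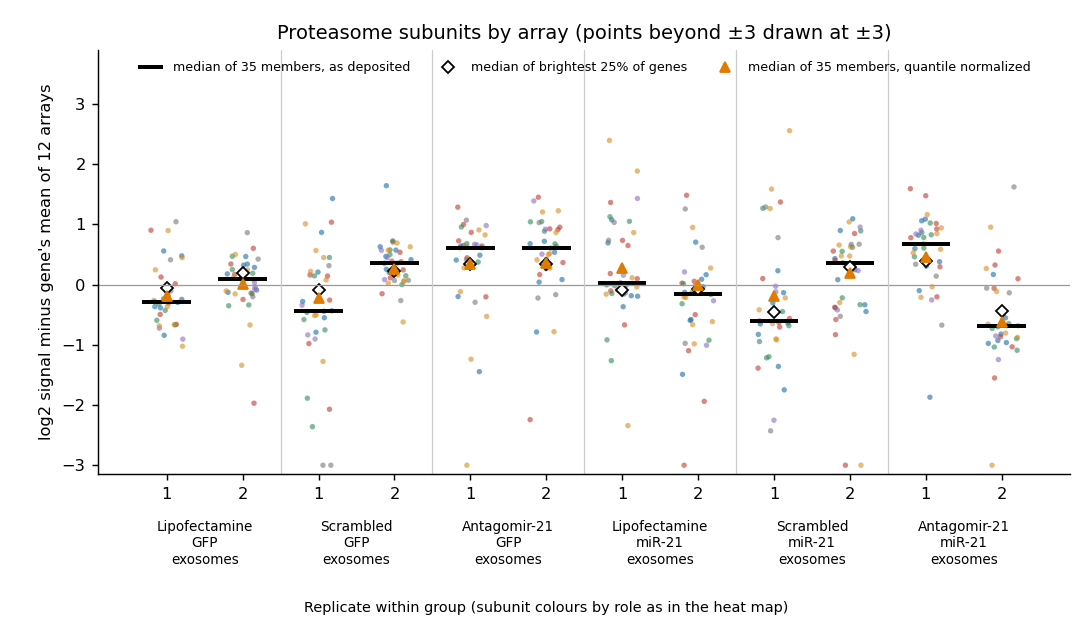
Deviation of each member (points, coloured by role) from its mean over the 12 arrays, on the log2 scale, for each array in its group. Bars are medians of the 35 members, diamonds medians of the brightest 25% of genes and triangles the members' medians after quantile normalization. The bars stand at 0.68 and −0.68 on the replicates of antagomir-21 with miR-21 exosomes, and the diamonds lie on the same side of 0 as the bar on 11 of the 12 arrays.

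The mean Pearson correlation between 2 members over the 12 arrays was 0.245, with 410 of 595 pairs above 0 and a range of −0.73 to 0.95. The same mean was 0.0008 over all genes, 0.141 over the brightest 25% of genes and 0.214 over 45 cytosolic ribosomal protein genes, another set of abundant housekeeping transcripts. It was 0.454 for the 26 members of the brightest 25%. All of these points share the arrays, and with them each array's scale and RNA. With group means removed, the members' mean correlation was 0.274, against 0.1475 for the brightest 25% of genes and 0.0005 for all genes. The subunits thus also moved together within groups, as bright genes at large did to a lesser degree. After quantile normalization, with group means kept, the mean correlation was 0.161 for the members, 0.246 for the 26 bright members and 0.0685 for the brightest 25% of genes.

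The mean correlations within each part of the particle were computed in the deposited values, and their differences were not tested. The mean was 0.513 among the 6 ATPases and 0.552 among the 3 other base subunits, against 0.246 in the alpha ring and 0.121 in the beta ring. It was 0.0702 in the lid and 0.0723 among the chaperones, which hold 6 of the 9 members outside the brightest 25%, and those 9 had a mean correlation of −0.03 among themselves. Set against the mean of the other 34 members, 23 members had a correlation over 0.5, led by the lid subunit *Psmd8* (0.95), *Psma1* (0.91), the ATPase *Psmc1* (0.89), the scaffold *Psmd2* (0.87) and *Psma7* (0.85). The 6 members with a correlation below 0 were *Psmd7* (−0.43), *Psmb2* (−0.38), *Psma8* (−0.37), *Psmb3* (−0.21), *Psmd9* (−0.11) and *Psmd3* (−0.09). In the deposited values these members lay outside the brightest 25%, apart from *Psmb3*, which had the smallest SD of all members. After quantile normalization 15 members had a correlation over 0.5. Then *Psmb3* (−0.58), *Psmd11* (−0.25), *Psma5* (−0.18) and *Psma4* (−0.03), all in the brightest 25%, lay below 0. So did *Psmd7* (−0.30), *Psmb2* (−0.18) and *Psmd9* (−0.08), whereas *Psma8* and *Psmd3* (both 0.09) lay above.

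**Figure D3:**
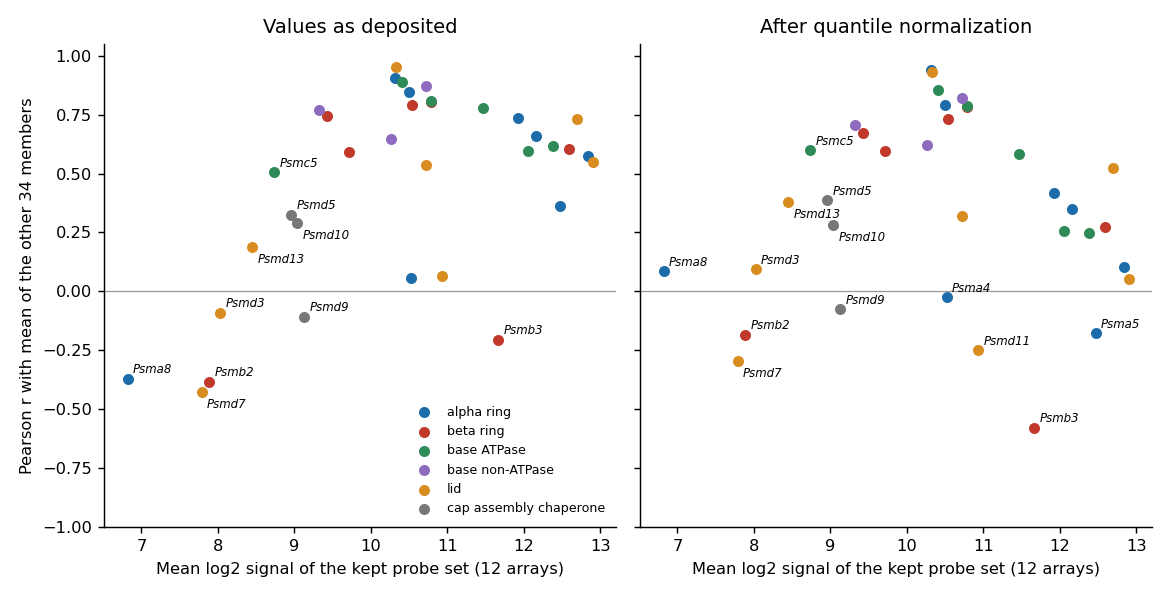
Pearson correlation of each member with the mean of the other 34 members over 12 arrays (vertical axis) against its mean log2 signal (horizontal axis), as deposited and after quantile normalization. Members between about 9 and 11 on the log2 scale reach up to 0.95, while the dimmest, *Psma8*, *Psmd7* and *Psmb2*, lie below 0 in the deposited values.

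The highest single correlations lay between core and cap as well as within them. *Psmb4* and *Psmc2* had r = 0.95, *Psmc2* and *Psmd6* 0.94, *Psma3* and *Psmd14* 0.92, *Psmb6* and *Psmd8* 0.92, and *Psma3* and *Psma6* 0.91 (12 arrays each). These were picked as the highest of 595 pairs. Apart from *Psmb6* and *Psmd8*, both members of each pair had a mean log2 signal above 12. All 711 genes above 12 had a mean pairwise correlation of 0.531, so bright genes at large were also correlated. Where a gene had several probe sets, they often did not move together: the 38 further probe sets of 19 members had a median correlation of 0.13 with the kept one. It was 0.23 for the 18 within 2 log2 units of the kept signal and −0.01 for the 20 dimmer ones.

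The catalytic subunits are given array by array. *Psmb5* was read at 9.83 and 9.57 with Lipofectamin, 9.85 and 10.10 with scramble, and 10.71 and 11.16 with antagomir-21 in PMs given GFP exosomes. With miR-21 exosomes it was 11.07 and 6.29, 9.10 and 9.33, and 10.63 and 8.84 for the same 3 transfections. Both antagomir-21 arrays with GFP exosomes thus lay above the other GFP arrays, whereas the replicates given Lipofectamin and miR-21 exosomes were further apart than any 2 groups.

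*Psmb6* was read at 10.13 and 11.13, 9.81 and 11.33, and 11.43 and 11.70 with GFP exosomes, and at 11.52 and 9.69, 10.23 and 9.96, and 11.80 and 10.73 with miR-21 exosomes, in the same order of transfections. *Psmb7* was read at 10.04 and 11.14, 10.28 and 11.24, and 11.82 and 11.46 with GFP exosomes, and at 10.72 and 10.04, 9.90 and 9.95, and 10.83 and 8.98 with miR-21 exosomes. For both, antagomir-21 with GFP exosomes had the highest group mean, 11.57 ± 0.19 for *Psmb6* and 11.64 ± 0.26 for *Psmb7* (SD, n = 2). In limma's F test over the 6 groups, unadjusted p was 0.694 for *Psmb5*, 0.712 for *Psmb6* and 0.50 for *Psmb7*.

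Among cap subunits, *Psmd14* was read at 12.44 and 12.81, 12.20 and 12.86, and 13.34 and 13.21 with GFP exosomes, and at 12.61 and 12.09, 11.80 and 13.74, and 13.29 and 12.02 with miR-21 exosomes. *Psmd4* was read at 8.42 and 9.28, 8.98 and 9.77, and 9.99 and 10.71 with GFP exosomes, and at 10.76 and 8.32, 7.07 and 10.28, and 10.23 and 8.08 with miR-21 exosomes. In both, every pair given miR-21 exosomes spanned more than the GFP pair of the same transfection.

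The scaffold *Psmd1* was read at 9.54 and 10.29, 9.43 and 10.83, and 11.24 and 10.77 with GFP exosomes, and at 10.42 and 10.47, 10.23 and 10.49, and 10.01 and 9.41 with miR-21 exosomes. *Psmd2* was read at 10.45 and 10.64, 9.81 and 10.80, and 11.39 and 11.64 with GFP exosomes, and at 10.75 and 10.45, 10.60 and 10.30, and 11.56 and 10.21 with miR-21 exosomes. The antagomir-21 pair with GFP exosomes was again the higher of the GFP pairs without overlap for *Psmd2*, and for *Psmd1* its lower array lay below 1 scramble array.

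Over the 6 groups, *Psma8* alone of the 35 members passed an unadjusted p of 0.05 in limma's F test (2.86% of members), where 5.96% of all genes did. The median F was 0.418 for the members, 0.828 for all genes and 0.375 for the brightest 25%. The median SD within groups was 0.81 for the members, 1.39 for all genes and 0.71 for the brightest 25%. Group medians of the members' deviations were −0.11, −0.04 and 0.50 for Lipofectamin, scramble and antagomir-21 with GFP exosomes, and −0.02, −0.20 and 0.04 with miR-21 exosomes. After quantile normalization they were −0.13, −0.03 and 0.25, and 0.16, −0.01 and −0.01. Antagomir-21 with GFP exosomes stood highest on both scales, with 29 of 35 members above their own means as deposited and 26 after quantile normalization. In this group the brightest 25% of genes had medians of 0.33 and 0.20 on the same scales, and all genes 0.08 and 0.17.

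*Psma8* was read at 7.38 and 7.29, 8.25 and 8.46, and 5.37 and 6.03 with GFP exosomes, and at 7.90 and 7.53, 6.18 and 6.37, and 4.95 and 6.12 with miR-21 exosomes. All 4 antagomir-21 arrays lay below the other 8 arrays, but with miR-21 exosomes only narrowly (6.12 against 6.18 with scramble). There antagomir-21 against scramble gave −0.74 (SE 0.83, unadjusted p = 0.391, limma), and −0.16 without antagomir-21 replicate 1. How often all genes separate in this way was not tested. In limma's F test, unadjusted p was 0.0320 and adjusted p 0.777 over all genes. The gene has 1 probe set here and is best known from male germ cells, and its signal lay below the array's median gene on 11 of the 12 arrays.

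The next comparisons ask what antagomir-21 and neuronal miR-21 each did to subunit signals, and none called a member after adjustment over all genes. At an adjusted p of 0.05, limma called 0 of the 18193 genes in every comparison. The counts below are therefore at an unadjusted p of 0.05, the threshold the methods name, and each stands beside the share of all genes called. Several comparisons use the same arrays, so they are not independent of each other.

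Antagomir-21 against scramble, over both kinds of exosomes, gave higher group means for 31 of 35 members, with a median log2 difference of 0.36. All genes had a median of −0.0040 (49.8% higher), the brightest 25% 0.17 (66.0% higher) and the ribosomal genes 0.38. One member, *Psma8*, passed an unadjusted p of 0.05 (2.86%), against 5.16% of all genes, and it fell by 1.70 (SE 0.59, unadjusted p = 0.0155, adjusted p = 0.775, limma). Median differences by role were 0.19 in the alpha ring, 0.43 in the beta ring, 0.51 for the ATPases, 0.73 for the other base subunits, 0.16 in the lid and 0.90 for the 3 chaperones. The chaperone value rested in part on replicate 1 of scramble with GFP exosomes. Without that array *Psmd5* went from 0.90 to −0.21 and *Psmd9* from 1.42 to 0.41. The *Psmd9* value also depended on the probe set kept, at 0.27 over the mean of its 3 probe sets. *Psmb6* had 1.09 (SE 0.70) and *Psmd8* 0.86 (SE 0.73), neither past the threshold. The members' median was 0.011 when replicate 1 of the scramble group given miR-21 exosomes was left out, and 0.74 when replicate 2 of its antagomir-21 counterpart was.

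With GFP exosomes only, antagomir-21 against scramble gave a median of 0.53 over the members, with 29 of 35 higher. All genes had 0.03 (51.2% higher), the brightest 25% 0.28 (68.1% higher) and ribosomal genes 0.40. *Psma8* again was the 1 member called, against 5.38% of all genes, and it fell by 2.65 (SE 0.83, unadjusted p = 0.00917, adjusted p = 0.705, limma). The call was lost with a trend of the variance on signal (unadjusted p = 0.119, limma) and without antagomir-21 replicate 1 (0.0637). Chaperone values here rested on 1 array. *Psmd5* was read at 4.57 and *Psmd9* at 4.81 on scramble with GFP exosomes replicate 1, and at 8.67 to 9.99 and 8.46 to 10.75 on the other 11 arrays. Their differences were 2.53 and 2.75, and 0.30 and 0.72 without that array. Without that array the members' median was 0.22. Over the mean of its 3 probe sets the *Psmd9* difference was 0.12.

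With miR-21 exosomes, antagomir-21 against scramble gave a median of 0.07, with 24 of 35 members higher. All genes had −0.05 (47.9% higher), the brightest 25% 0.07 (55.3% higher) and ribosomal genes 0.22. The lid subunit *Psmd13* was the 1 member called, against 5.3% of all genes. It was read at 9.71 and 9.08 with scramble and at 8.24 and 4.48 with antagomir-21, and at 7.67 to 10.84 on the other 8 arrays. The pairs did not overlap, but the difference rested largely on 1 array. *Psmd13* fell by 3.04 (SE 1.36, unadjusted p = 0.0493, adjusted p = 0.941, limma), and the value was −1.16 without antagomir-21 replicate 2, where unadjusted p no longer passed, and −0.95 over the mean of its 4 probe sets. The call was also lost under quantile normalization (unadjusted p = 0.0691, limma) and median centring (0.0629), and was kept in 3 of the 12 fits that left out 1 array. Its second probe set, at nearly the same mean signal (8.43), had a correlation of −0.04 with the first. Without antagomir-21 replicate 1 the members' median was −0.42 and without replicate 2 it was 0.90, and after quantile normalization it was −0.11.

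**Figure D4:**
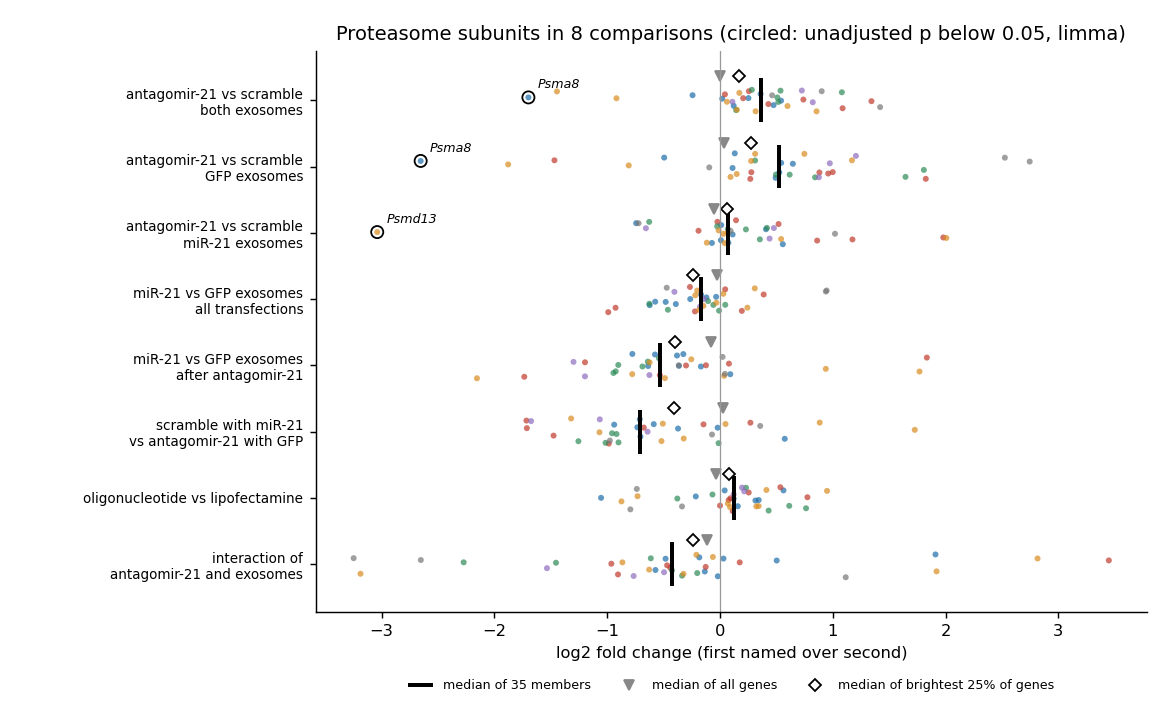
Log2 fold changes of the 35 members (points, coloured by role) in 8 comparisons, with the median of the members (bar), of all 18193 genes (grey triangle) and of the brightest 25% of genes (diamond). Circled members passed an unadjusted p of 0.05 by limma. The members' median lies farther from 0 than that of all genes in each row, and in 7 rows on the same side as, and farther out than, the brightest 25% or level with it.

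miR-21 against GFP exosomes, over the 3 transfections, gave a median of −0.17, with 9 of 35 members higher. All genes had −0.02 (49.0% higher), the brightest 25% −0.24 (24.9% higher) and ribosomal genes −0.08. Of the members 0 passed an unadjusted p of 0.05, against 5.45% of all genes, and the smallest p was that of *Psmb7* (−0.93, SE 0.54, unadjusted p = 0.119, adjusted p = 0.970, limma). All 8 alpha subunits had lower means with miR-21 exosomes (median −0.33). When replicate 2 of the antagomir-21 group given miR-21 exosomes was left out, the members' median was 0.079.

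After antagomir-21, miR-21 against GFP exosomes gave a median of −0.53, with 8 of 35 members higher. All genes had −0.08 (47.3% higher), the brightest 25% −0.40 (25.2% higher) and ribosomal genes −0.32. Again 0 members passed, against 5.68% of all genes, with *Psmb7* closest (−1.73, SE 0.94, unadjusted p = 0.0946, limma). Leaving out replicate 1 of the group given antagomir-21 and miR-21 exosomes gave −1.26 and leaving out replicate 2 gave 0.046, so the direction depended on which of these arrays was kept.

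The groups meant to hold most and least miR-21 were also compared, scramble with miR-21 exosomes over antagomir-21 with those of the GFP reporter. The members' median was −0.70, the farthest from 0 of the 8 comparisons, with 6 of 35 members higher. All genes had 0.03 (51.0% higher), the brightest 25% −0.41 (26.3% higher) and ribosomal genes −0.56. By limma 0 members passed, against 7.17% of all genes, and *Psmb7* was closest (−1.71, SE 0.94, unadjusted p = 0.0984, adjusted p = 0.797). All 6 ATPases (median −0.94) and all 3 other base subunits (median −1.07) had lower means. The median was −0.25 without scramble replicate 1, −1.16 without scramble replicate 2 and −0.40 after quantile normalization. B cell markers were also highest in this scramble group, 10.04 and 10.13 against 8.31 to 9.36 on the other 10 arrays. Of these 5 markers 4 were measured, none with a mean at 0. The same group had the highest mean of T and NK cell (7.46), mast cell (8.54) and eosinophil markers (7.20). It also had that of mesothelial (7.52) and sensory neuron markers (6.94), but not of dendritic cell markers (7.22). Its replicates differed, at 8.27 and 6.65 for T and NK cell markers and 6.59 and 7.80 for eosinophil markers. Antagomir-21 with miR-21 exosomes was close, at 7.16 for eosinophil and 7.45 for mesothelial markers. Of the T and NK cell and of the eosinophil markers 1 each lay above the median gene, and of the mesothelial and neuron markers 0. The part of these markers in the differences was not tested.

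Both oligonucleotides against Lipofectamin gave a median of 0.12, with 26 of 35 members higher. All genes had −0.03 (48.3% higher), the brightest 25% 0.08 (58.2% higher) and ribosomal genes 0.16. Here 0 members passed, against 4.05% of all genes, and *Psma8* was closest (−1.05, SE 0.51, unadjusted p = 0.0638, adjusted p = 0.999, limma). In the interaction, the difference between the antagomir-21 effects under miR-21 and GFP exosomes, the median was −0.43, with 8 of 35 members above 0. All genes had −0.12 (47.1% above 0), the brightest 25% −0.24 (38.7% above 0) and ribosomal genes −0.27. Of the members 0 passed, against 5.36% of all genes, and *Psmd5* was closest (−3.25, SE 1.84, unadjusted p = 0.107, limma), at −1.02 without scramble with GFP exosomes replicate 1. Leaving out replicate 1 or 2 of antagomir-21 with miR-21 exosomes gave −1.06 and 0.44, respectively.

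Of 34 related genes, for activators, inhibitors, assembly factors, ubiquitin shuttles, cap-associated proteins, the NFE2L1 pathway, ubiquitin and the immune forms, 24 were measured under a single symbol. *Nfe2l1*, the transcription factor of subunit genes, was the 1 that passed an unadjusted p of 0.05 by limma, in the F test and in 6 of the 8 comparisons. It made up 4.17% of the 24 there, against 4.05% to 7.17% of all genes, so the count itself was near the background. It was read at 9.25 and 10.03, 9.04 and 9.68, and 10.15 and 8.48 with GFP exosomes, and at 10.13 and 9.33, 5.81 and 4.58, and 9.35 and 9.4 with miR-21 exosomes, for Lipofectamin, scramble and antagomir-21. Only the scramble arrays with miR-21 exosomes, both of them, lay below 8.48.

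With miR-21 exosomes, *Nfe2l1* rose by 4.18 (SE 0.94, unadjusted p = 0.00114, adjusted p = 0.550, limma) with antagomir-21 against scramble, and 5.3% of all genes were called there. With GFP exosomes the same difference was −0.04 (SE 0.94). The interaction was 4.22 (SE 1.32, unadjusted p = 0.00947, adjusted p = 0.802, limma). Scramble-transfected PMs given miR-21 exosomes were lower than antagomir-21–transfected PMs given GFP exosomes by a log2 difference of −4.12 (SE 0.94, unadjusted p = 0.00125, adjusted p = 0.293, limma). The gene was read by 1 probe set, and leaving out single arrays gave 3.56 to 4.79 for antagomir-21 against scramble with miR-21 exosomes. B cell markers were highest on the same 2 arrays. Most other non-macrophage lists had their highest group mean there, as given above, but T and NK cell and eosinophil markers differed between the 2 arrays. The part of these markers in this was not tested.

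On the same 2 arrays the members' median deviations were −0.60 and 0.36, and their group median of −0.20 was the lowest of the 6 groups in the deposited values. Over the 12 arrays *Nfe2l1* had a correlation of 0.11 with the members' median, and the relation between the factor and the subunits was not tested. Related genes closest to the members' median were the shuttle *Ubqln1* (0.86), the activator *Psme1* (0.82) and the unfoldase *Vcp* (0.79), and *Psmf1*, a proteasome inhibitor, was lowest (−0.47), each over 12 arrays. The core assembly factor *Pomp* had 0.67 and the small cap protein *Sem1* 0.71.

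**Figure D5:**
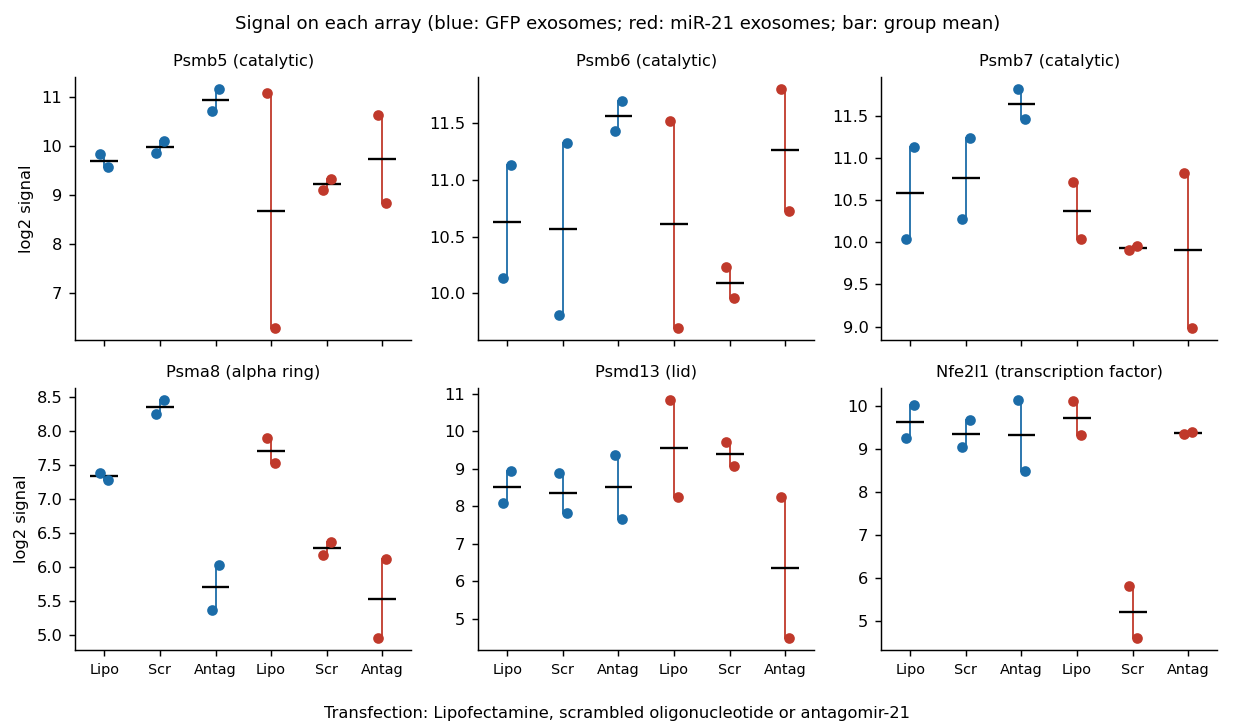
Log2 signal on each array for the catalytic subunits *Psmb5*, *Psmb6* and *Psmb7*, for *Psma8*, *Psmd13* and for the transcription factor *Nfe2l1*, by transfection with GFP (blue) or miR-21 exosomes (red). Points are arrays and bars group means of 2 arrays. *Psma8* is lowest on the 4 antagomir-21 arrays, and *Nfe2l1* is at 5.81 and 4.58 on the scramble arrays with miR-21 exosomes. The vertical axes do not start at 0 and differ between panels.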

How the data were processed

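Total RNA of cultured PMs was measured on 12 Affymetrix mouse arrays, 2 in each of 6 groups, with groups and replicates taken from the sample labels. The deposited values are log2 signals of probe sets. The methods describe RMA with quantile normalization and amplification with a WT Pico kit (the labels give NuGEN kits). The deposited arrays share a trimmed mean of 496 to 499 on the linear scale (2% removed at each end) but not a distribution, and which software made them was not given in the sources used. How far a signal lies above background is unknown, and the number of arrays limits the precision.

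Of 45037 probe sets, 34945 had 1 gene symbol, 932 several and 9160 none listed. The symbol was found by gene ID for 34741 of the 34945. For 9010 of 18193 genes the probe set of highest mean signal over all arrays was kept. All genes were fitted together with limma 3.58.1 (R 4.3.3) as 6 group means (6 residual and 4.258 prior degrees of freedom), with Benjamini-Hochberg adjustment, tested on simulated data. Summaries used Python 3.11.15 and pandas 2.3.3. Members, lists and tests were chosen with earlier results of these data known. Per-array values were given for catalytic subunits, *Psmd14*, *Psmd4*, *Psmd1*, *Psmd2* and members at an unadjusted p under 0.05. *Nfe2l1*, *Psmd5*, *Psmd9* and *Psmb10* were singled out after their values were seen. Alternatives were quantile normalization, median centring, the mean of a gene's probe sets, a filter on dim genes, a variance trend, a replicate block, an unpaired t-test and leaving out each array. Promoter and miRNA sequences are from RefSeq (GRCm38.p6).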

Additional observations from a re-analysis of the deposited data

How the results depend on the processing

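The 1 member called by the F test over 6 groups (*Psma8*) became 0 under quantile normalization, median centring, the filter on dim genes, the variance trend and the replicate block, and stayed 1 over the mean of all probe sets. The filter removes *Psma8* itself. Counts of members called without 1 array are left out, since 1 group then holds a single array. The mean correlation between members (0.245) was 0.161 after quantile normalization, 0.394 after median centring, 0.127 over the mean of all probe sets, 0.340 with the filter, and 0.22 to 0.26 without 1 array. Leaving out 1 array moved the members' median log2 difference between 0.011 and 0.74 for antagomir-21 against scramble with both exosomes, 0.22 and 0.87 with GFP exosomes, and −0.42 and 0.90 with miR-21 exosomes. It moved it between −0.41 and 0.079 for miR-21 against GFP exosomes, −1.26 and 0.046 after antagomir-21, −1.16 and −0.25 for scramble with miR-21 against antagomir-21 with GFP exosomes, 0.033 and 0.34 for oligonucleotide against Lipofectamin, and −1.06 and 0.44 for the interaction. Both antagomir-21 arrays with miR-21 exosomes set most of these ends. Median centring moved the median of all genes to −0.33 for scramble with miR-21 against antagomir-21 with GFP exosomes (members −1.06) and to 0.20 where antagomir-21 was set against scramble under GFP exosomes (members 0.69), leaving the members' distance from all genes at −0.73 and 0.49. After quantile normalization these distances were −0.27 and 0.13. For antagomir-21 against scramble with miR-21 exosomes, quantile normalization turned the members' median to −0.11. *Psma8* kept its direction, but unadjusted p by limma was 0.156 (both exosomes) and 0.119 (GFP exosomes) under the variance trend. For scramble with miR-21 against antagomir-21 with GFP exosomes, an unpaired t-test on the 4 arrays passed 8 members (*Psma1*, *Psma7*, *Psmb5*, *Psmb6*, *Psmb7*, *Psmc3*, *Psmd2*, *Psmd8*) at an unadjusted p of 0.05, against 0 by limma. Over all genes it passed 1346 (7.4%), and 0 after Benjamini-Hochberg adjustment. It also lost *Psmd13* (unadjusted p = 0.252, against 0.0493 by limma). In the other 3 pairs of groups it passed 2, 1 and 0 of the 35 members, against 5.78%, 4.54% and 5.34% of all genes. The methods name this test for pairs of groups in general and not for the arrays. The causes were not tested. Same-numbered arrays shared little: over 15 pairs of groups the correlation of same-numbered deviations ran from −0.19 to 0.17, with 1 over 0.1. With 2 arrays per group, these correlations cannot tell whether same-numbered arrays were prepared together. Apart from the F test, the replicate block changed no count of members called.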

Other observations

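Between replicates given miR-21 exosomes, the brightest subunits shifted by medians near those of all genes as bright. The set was chosen here after its values were seen and is given without a test. The 8 members with a mean log2 signal above 12 were *Psma3*, *Psma5*, *Psma6*, *Psmb4*, *Psmc2*, *Psmc4*, *Psmd6* and *Psmd14*, from every part of the particle that holds more than 3 members. Their mean pairwise correlation over the 12 arrays was 0.823, against 0.434 for the 18 dimmer members of the brightest 25% and −0.03 for the 9 others. Between the scramble arrays with miR-21 exosomes all 8 were higher on replicate 2, by 1.26 to 2.65 (median 1.88), while the 18 had a median of 0.28. Between the Lipofectamin arrays with miR-21 exosomes the order was the other way round: the 8 had a median of −0.02, and the 18 one of −0.92, down to −4.78 for *Psmb5*. Between the antagomir-21 arrays with miR-21 exosomes both sets were lower on replicate 2, with medians of −1.56 and −1.42. All 711 genes with a mean signal above 12 had medians of 1.56, 0.05 and −1.43 between the same 3 pairs of replicates, and a mean pairwise correlation of 0.531.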
